A study of Mus musculus with 8 samples.

Results

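The line of mouse keratinocytes that expressed human integrin α9 alone was compared with its parent line, which lacked integrin α3 and received no integrin, over all 23332 transcript clusters of an exon array. The parent line, MK546, came from newborn α3-null mice and was immortalized with SV40 large T antigen, and it is called null here. The α9 line was made from it by stable retroviral transduction of human α9. A pair of further lines entered the same fit, 1 with human α3 by stable transfection (α3) and 1 with both human subunits (α3α9). Each of the 4 lines had 2 arrays, described by the submitters as biological replicates, so 4 of the 8 arrays make up the comparison. The sources used here do not say whether replicates came from separate cultures or whether a line was 1 clone, so the p-values speak only of how these arrays varied. All lines shared the α3-null background, the large T antigen and 1 culture medium, which held calcium at 0.05 mM, EGF at 10 ng per ml, 10 units per ml of interferon-γ, 4% chelated serum, hydrocortisone and insulin. They grew at 33 °C and 8% CO2 on collagen at 30 µg per ml. In the sample titles, the words re-analysis follow the names of the null line and of the α3 line but not those of the lines with α9. Expression of α9 and array set are therefore confounded: in every value below, a difference between the sets and a difference due to α9 cannot be told apart.

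Integrins are pairs of an α and a β subunit that span the cell membrane and bind the matrix outside it. The α9 subunit pairs with β1 and binds tenascin-C, osteopontin, VCAM-1, fibronectin with its extra domain A, and vascular endothelial growth factors, and in epidermis it appears at wound edges. The α3 subunit also pairs with β1 and binds the laminin of the epidermal basement membrane. Both heterodimers signal through Src and focal adhesion kinase to the ERK kinases, and to the actin cytoskeleton.

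The deposited intensities were scaled so that each array had the same median, 102.5, and tested as log2(intensity + 16) with limma, with Benjamini-Hochberg adjustment over all clusters and a threshold of 0.05. All log2 differences below are on this scale and are given ± SE; the scale understates the change of dim clusters. Replicate arrays correlated across clusters at 0.986 to 0.991, and null arrays correlated with α9 arrays at 0.969 to 0.975. Between replicates the standard deviation on the log2 scale was 0.216 (null) and 0.217 (α9). No pair of arrays shared more than 1 identical value.

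Of the 23332 clusters, 3107 passed in α9 minus null, 13.3%, with 1666 higher in the α9 line (7.14%) and 1441 lower (6.18%). Among them 459 were more than 2-fold higher and 434 more than 2-fold lower, and 50 rose and 31 fell by more than 4-fold. Differences ran from 3.56 to -4.31, and the smallest that passed was 0.42 in size. In all 3107 the 2 arrays of one line lay outside the range of the other, as did those of 13757 clusters in all (59.0%), so lack of overlap alone says little with 2 arrays a line. Where it is given below for genes that passed, it adds nothing to the call. The median over all clusters was 0.03. Clusters with 1 named gene passed in 15.7% of cases and clusters that the annotation did not list in 8.58%. All members of the gene lists below come from clusters with 1 named gene, so 15.7% is the nearer share for them. With the clusters split by mean level into 4 equal parts, 184, 330, 1292 and 1301 passed from the dimmest part to the brightest. Calls were thus more frequent among bright clusters, and the shares given below were not matched for level. On the deposited scale, without scaling, 1009 clusters passed, 81% of them higher, and the median over all clusters was 0.16, whereas 53.6% of the calls were higher after scaling. Leaving out an array of the compared lines left 846 clusters without null array 1, 956 without null array 2, 1738 without α9 array 1 and 780 without α9 array 2. No call turned its sign in any of these fits.

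**Figure D1:**
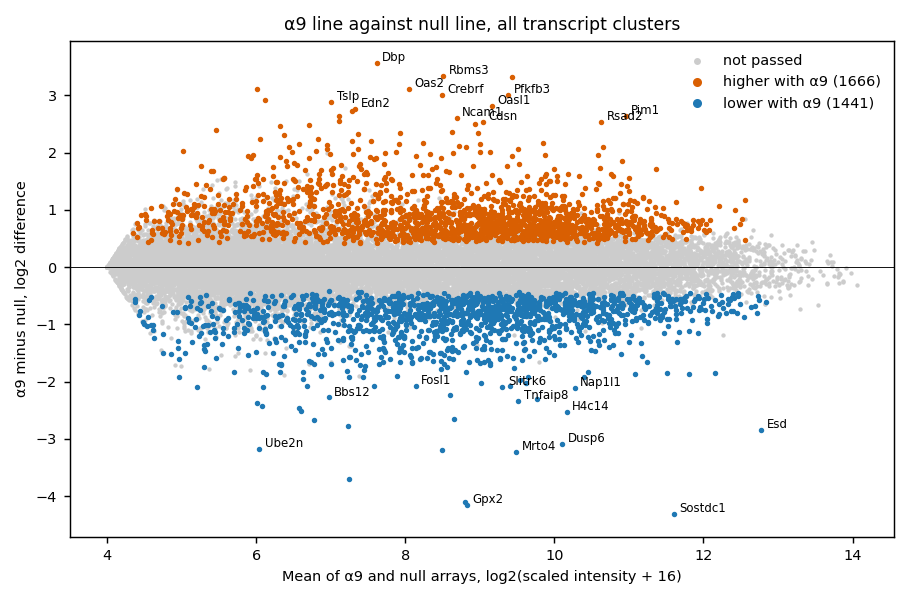
Difference between the α9 and null lines (vertical axis, log2) against the mean level of both lines (horizontal axis, log2 of scaled intensity + 16) for 23332 transcript clusters, 1 point each. Orange points mark the 1666 clusters that passed as higher with α9 and blue points the 1441 that passed as lower, and the named points are the 12 largest rises and the 12 largest falls, from 3.56 for Dbp to -4.31 for Sostdc1.

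Mouse integrin subunits passed at 11.8%, a share near the 13.3% of all clusters. The array's probes are for mouse genes and the transgene is human, so these values do not check the labels. Mouse Itga9 stood at 51.2 and 57.3 on the null arrays and 56.0 and 65.4 on the α9 arrays, overlapping ranges (0.13 ± 0.13, adjusted p = 0.572). Itga3, the deleted gene, read 1088 and 1015 in the null line and 983 and 818 in the α9 line (-0.22 ± 0.13, adjusted p = 0.315), and the part of the gene that the knockout removes is not given in the sources used here. Itgb1, the partner of both subunits, gave 8083 and 8173 against 6803 and 8082 (-0.13 ± 0.14, adjusted p = 0.606). Of 17 integrin subunits measured, 2 rose and none fell, beside 7.14% of all clusters that rose and 6.18% that fell. Itgb5, a subunit of a vitronectin receptor, went from 593 and 676 to 1376 and 1310.0, a difference of 1.07 ± 0.15, adjusted p = 0.00638. Itga2, the collagen-binding α2 subunit, went from 95.7 and 111 to 256 and 168 (0.91 ± 0.20, adjusted p = 0.0258). Both α9 arrays lay above both null arrays for each of them. The call of Itgb5 ended without null array 1 (adjusted p = 0.0512), and that of Itga2 ended without either null array or without α9 array 1 (0.0827 to 0.135) and on the deposited scale (0.0649). The α6 and β4 subunits of the hemidesmosome did not pass, at 0.02 ± 0.14 and 0.22 ± 0.16.

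Among 20 measured ligands and partners of α9β1, 5 rose and none fell, with a median of 0.17 beside 0.03 for all clusters. The share that rose was 25%, beside 7.14% of all clusters. Of the growth factors, Vegfc, which drives lymphatic vessel growth, rose from 53.4 and 46.0 on the null arrays to 242 and 142 on the α9 arrays (1.62 ± 0.23, adjusted p = 0.00663). Vegfd, its close relative, rose from 869 and 878 to 1297 and 1300.5 (0.56 ± 0.12, adjusted p = 0.0219), while Vegfa read 646 and 866 against 783 and 720.2 and did not pass (0.01 ± 0.18, adjusted p = 0.99). The α9 arrays were thus above the null arrays for Vegfc and Vegfd and within the same range for Vegfa. Tgm2, the tissue transglutaminase, rose from 322 and 365 to 847 and 1226 (1.53 ± 0.19, adjusted p = 0.0045). Kcnj15, the inward rectifier potassium channel through which α9β1 is known to act on cell migration, rose from 22.5 and 25.2 to 107 and 93.8 (1.55 ± 0.14, adjusted p = 0.00194). Adam15, a membrane-bound disintegrin and metalloprotease, rose from 432 and 422 to 660.4 and 689 (0.64 ± 0.12, adjusted p = 0.0156). These 5 genes were higher on both α9 arrays, by less than 2-fold for Adam15 and Vegfd, whose calls ended with any of the 4 arrays of the pair left out (adjusted p from 0.0569 to 0.0935 for Adam15 and from 0.0814 to 0.114 for Vegfd) and on the deposited scale (0.0697 and 0.124). The matrix ligands did not pass: the difference was -0.13 ± 0.11, adjusted p = 0.493 for tenascin-C (Tnc), 0.02 ± 0.12, adjusted p = 0.933 for fibronectin (Fn1) and 0.48 ± 0.20, adjusted p = 0.169 for thrombospondin-1 (Thbs1). Osteopontin was not among the 20 measured genes. On the null and α9 arrays Tnc read 49.7 to 58.8 and Fn1 54.8 to 64.4, below the array median of 102.5. Vcam1, Emilin1, Svep1, Xcl1 and Adam12 lay between -0.07 and 0.17. Adam8, at 0.32 ± 0.12, and F13a1, the A subunit of the clotting transglutaminase, at -0.26 ± 0.11, did not pass. Npnt, nephronectin, came nearest to the threshold among those that were lower, from 97.2 and 89.5 to 60.5 and 69.8 (-0.43 ± 0.12, adjusted p = 0.0584). The adaptors and kinase downstream of the receptor, Pxn, Bcar1 and Src, stood at 0.36 ± 0.17, 0.18 ± 0.11 and 0.35 ± 0.12 and did not pass.

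The 12 largest rises were led by Dbp, a clock-controlled transcription factor, at 39.9 and 42.2 on the null arrays and 699 and 616 on the α9 arrays, a difference of 3.56 ± 0.20, adjusted p = 0.000548. Rbms3, an RNA-binding protein, rose from 93.6 and 103 to 1091 and 1195 (3.34 ± 0.12, adjusted p = 0.000143). Crebrf, a regulator of the transcription factor Creb3, rose from 103 and 119 to 911 and 1117 (3.01 ± 0.15, adjusted p = 0.000548). In each of the 3 genes the lower α9 array was more than 7-fold above the higher null array. Pfkfb3, the enzyme that sets the level of the glycolytic activator fructose bisphosphate, rose from 225 and 214 to 1887 and 1863 (3.01 ± 0.19, adjusted p = 0.000551). Tslp, an epithelial cytokine that acts on dendritic cells, rose from 23.1 and 41.5 to 372 and 299.7 (2.88 ± 0.21, adjusted p = 0.000927). Edn2, an endothelin, rose from 54.9 and 37.5 to 306 and 527 (2.76 ± 0.30, adjusted p = 0.00329). These 3 genes also had no overlap between lines, a condition for entry among the 12, with the widest spread between α9 arrays in Edn2. Pim1, a survival kinase, rose from 720.4 and 839.7 to 4004 and 6133 (2.65 ± 0.22, adjusted p = 0.00144). Ncam1, a cell adhesion molecule of the immunoglobulin family, rose from 142 and 162 to 870.5 and 1148 (2.60 ± 0.17, adjusted p = 0.000726). Cdsn, the corneodesmosin of the cornified layer, rose from 197 and 209.9 to 1065 and 1487 (2.54 ± 0.20, adjusted p = 0.00116). The 3 remaining genes of the 12, Oas2, Oasl1 and Rsad2, belong to the interferon response. All 12 kept their calls with each of the 8 arrays left out in turn and on the deposited scale.

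The 12 largest falls began with Sostdc1, a secreted antagonist of bone morphogenetic proteins and Wnt, at 13030.4 and 14643 on the null arrays and 711 and 653 on the α9 arrays, a difference of -4.31 ± 0.15, adjusted p = 0.000143. Gpx2, the glutathione peroxidase of epithelia, fell from 1952 and 1836 to 94.8 and 88.9 (-4.15 ± 0.23, adjusted p = 0.000548). Mrto4, a ribosome assembly factor, fell from 2458 and 1927 to 204 and 236 (-3.22 ± 0.17, adjusted p = 0.000548). For each of them every null array was more than 8-fold above every α9 array. Ube2n, a ubiquitin-conjugating enzyme, fell from 187 and 176 to 13.9 and 0.0527 (-3.17 ± 0.38, adjusted p = 0.00406), with both α9 values below the added 16, so the size of that difference depends on the pseudocount. Dusp6, the phosphatase that inactivates ERK, fell from 2935 and 3479 to 512 and 256 (-3.08 ± 0.30, adjusted p = 0.00234). Esd, an esterase, fell from 20112 and 17550.2 to 2358 and 2884 (-2.84 ± 0.69, adjusted p = 0.037). The SE of Esd was the widest of the 12 because the fit pools the spread of all lines and the 2 α3 arrays gave 2242 and 13321: its call ended when any null, α9 or α3α9 array was left out (adjusted p from 0.0543 to 0.149). Tnfaip8, a survival gene that tumour necrosis factor induces, fell from 1555 and 1712 to 356 and 269.6 (-2.34 ± 0.16, adjusted p = 0.000886). Nap1l1, a histone chaperone, fell from 2553 and 2537 to 639 and 527 (-2.10 ± 0.13, adjusted p = 0.000548). Fosl1, a subunit of the transcription factor AP-1, fell from 543 and 584 to 147 and 99.3 (-2.08 ± 0.18, adjusted p = 0.00147). None of these overlapped between lines, which was a condition for entry among the 12. The other 3 falls were a histone H4 gene, H4c14 (-2.52 ± 0.25), whose probes may also read near-identical copies, the Bardet-Biedl protein gene Bbs12 (-2.27 ± 0.14), and Slitrk6 (-2.09 ± 0.23), which encodes a membrane protein of neurons. Esd was the only one of the 12 to lose its call with an array left out. The calls of Gpx2 and Esd ended with a pseudocount of 1. On the α3α9 arrays Gpx2 read 0.0954 and 11.5, below the added 16.

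**Figure D2:**
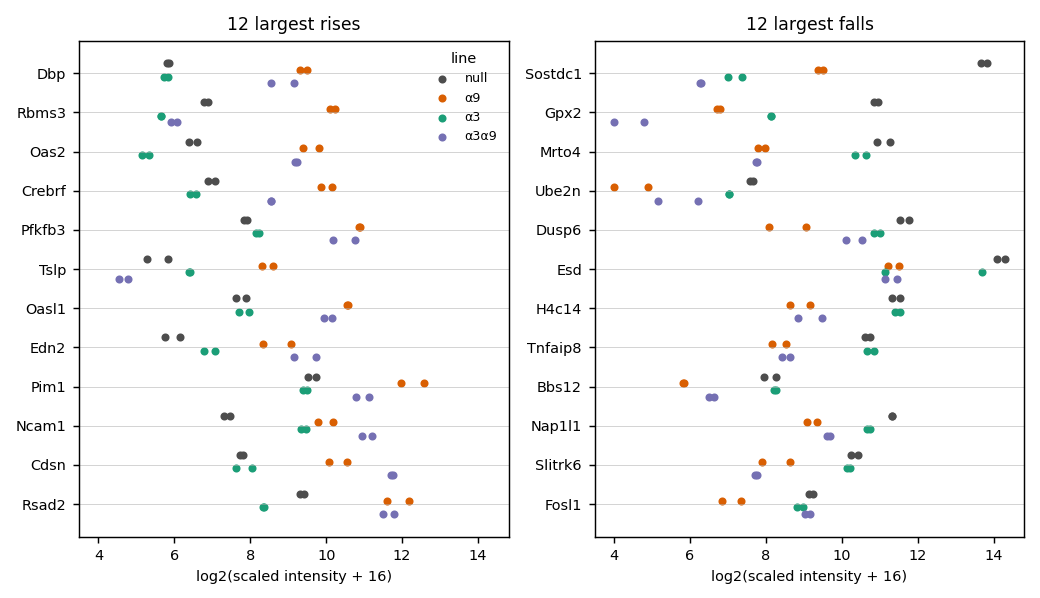
Levels on all 8 arrays (horizontal axis, log2 of scaled intensity + 16) of the 12 largest rises (left) and the 12 largest falls (right) of α9 minus null, 1 point per array, with the lines in grey (null), orange (α9), green (α3) and violet (α3α9). Orange and grey points do not overlap in any of the 24 genes, which was a condition of their choice. For Tslp, Rbms3, Sostdc1 and Fosl1 the violet points do not lie from the green points as the orange points lie from the grey.

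Interferon-stimulated genes passed in both directions. They encode antiviral enzymes, GTPases and the transcription factors that switch them on, and 28 of the 39 listed were measured. In α9 minus null 13 rose and 4 fell, with a median of 0.44 beside 0.03 for all clusters. The share that passed was 60.7%, beside 13.3% of all clusters. Oas2, which makes the oligoadenylate that activates RNase L, stood at 68.3 and 81.0 on the null arrays and 885 and 656 on the α9 arrays (3.10 ± 0.17, adjusted p = 0.000548). Oasl1, a relative with no such enzyme activity, rose from 180.5 and 220.3 to 1472 and 1517 (2.81 ± 0.15, adjusted p = 0.000548). Rsad2, viperin, rose from 664 and 621 to 3112 and 4658 (2.54 ± 0.20, adjusted p = 0.0012). Irf7, the factor that drives type I interferon genes, rose from 675 and 853 to 3289 and 3313 (2.10 ± 0.20, adjusted p = 0.00201). All 4 were at least 3-fold higher on the lower α9 array than on the higher null array. Ifit1 and Ifit2, which bind viral RNA, rose by 1.73 ± 0.21 and 2.005 ± 0.15, and Stat2, a subunit of the factor that type I interferon activates, went from 843 and 907 to 1427 and 1306 (0.63 ± 0.14, adjusted p = 0.0251). The 4 that fell include the interferon-γ-induced GTPases Gbp2, from 5695 and 6925 to 2899 and 4105 (-0.86 ± 0.19, adjusted p = 0.0254), Gbp7 (-0.74 ± 0.12, adjusted p = 0.00968) and Irgm1 (-0.57 ± 0.11, adjusted p = 0.0194), together with Socs1, the feedback inhibitor of interferon receptors (-0.65 ± 0.15, adjusted p = 0.0326). Another GTPase of that family, Gbp5, rose, from 192 and 312 to 525 and 450.0 (0.94 ± 0.21, adjusted p = 0.0285). The arrays of the lines did not overlap for any of these genes, all falls were smaller than 2-fold, and probes of the Ifit, Oasl and Gbp genes may also read close relatives. Of 12 measured genes of antigen processing none passed, with a median of -0.04. Leaving out an array of the compared lines left 7 to 10 rises (the fewest without null array 1) and 0 or 1 falls (none without either null array), and 9 rises and 0 falls passed on the deposited scale. The calls of Oas2, Oasl1, Rsad2, Irf7, Ifit1 and Ifit2 did not end with any array left out. Those of Stat2, Gbp5, Gbp2, Gbp7, Irgm1 and Socs1 did, at adjusted p from 0.0535 to 0.158, and none of these 6 passed on the deposited scale.

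The 300-base promoter windows of the interferon genes, from RefSeq on GRCm38.p6, were searched on both strands for GAAA followed after any 2 bases by another GAAA, the core of the interferon-stimulated response element, which reads as TTTC on the other strand. The windows run from 250 bases before the start of the gene to 50 after it. The core was found in 4 of 10 members that rose and had a window (Rsad2, Ifit1, Gbp5 and Stat2) and in all 4 that fell (Irgm1, Socs1, Gbp7 and Gbp2), beside 3.44% of the 32851 windows of all genes. A gene was counted if any of its windows held the core, while the share is of single windows. Members that did not pass were not searched, so these counts do not tie the core to a rise or a fall rather than to the list. A pair of windows from genes that rose and a pair from genes that fell are shown because the same letters stand in both, with each match in capitals on the gene's strand. Rsad2 lies at chr12:26456403-26456702 on the minus strand, Ifit1 at chr19:34640639-34640938 on the plus strand, Irgm1 at chr11:48871371-48871670 on the minus strand and Gbp2 at chr3:142620413-142620712 on the plus strand.
Rsad2, which rose: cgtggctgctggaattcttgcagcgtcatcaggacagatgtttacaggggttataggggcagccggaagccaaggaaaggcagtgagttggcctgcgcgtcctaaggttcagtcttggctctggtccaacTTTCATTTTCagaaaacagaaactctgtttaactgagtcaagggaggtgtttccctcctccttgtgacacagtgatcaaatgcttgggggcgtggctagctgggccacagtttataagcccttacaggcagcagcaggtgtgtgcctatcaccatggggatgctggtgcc
Ifit1, which rose: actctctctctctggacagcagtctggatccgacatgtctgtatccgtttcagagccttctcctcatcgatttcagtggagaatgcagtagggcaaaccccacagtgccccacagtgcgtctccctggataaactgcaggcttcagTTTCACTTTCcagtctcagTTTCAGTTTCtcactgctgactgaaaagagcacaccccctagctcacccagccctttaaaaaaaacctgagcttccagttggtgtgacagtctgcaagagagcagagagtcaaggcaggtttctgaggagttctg
Irgm1, which fell, with overlapping matches: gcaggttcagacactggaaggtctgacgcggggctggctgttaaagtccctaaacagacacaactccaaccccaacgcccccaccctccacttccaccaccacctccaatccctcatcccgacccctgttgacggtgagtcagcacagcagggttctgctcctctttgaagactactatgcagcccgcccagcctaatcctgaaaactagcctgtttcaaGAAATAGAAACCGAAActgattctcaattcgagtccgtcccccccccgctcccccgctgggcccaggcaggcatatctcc
Gbp2, which fell: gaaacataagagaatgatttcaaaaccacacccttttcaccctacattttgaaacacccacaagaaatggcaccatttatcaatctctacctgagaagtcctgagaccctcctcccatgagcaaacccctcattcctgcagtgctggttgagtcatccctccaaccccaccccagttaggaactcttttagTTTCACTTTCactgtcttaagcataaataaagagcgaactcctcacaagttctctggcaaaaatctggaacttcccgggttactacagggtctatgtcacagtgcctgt

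Cytokines, chemokines and other mediators of inflammation split between rises and falls, with 7 and 9 of 38 measured and a median of 0.02. In all 42.1% passed, beside 13.3% of all clusters. Those that fell include attractants and growth factors of neutrophils and macrophages. Cxcl5, a neutrophil chemokine, fell from 5432 and 5660.1 on the null arrays to 1923 and 1207 on the α9 arrays (-1.85 ± 0.21, adjusted p = 0.00353). Csf2, the granulocyte-macrophage factor, fell from 189 and 171 to 80.8 and 22.1 (-1.69 ± 0.38, adjusted p = 0.0281), with the α9 arrays more than 3-fold apart. The remaining falls were Csf3, Ccl20, Cxcl2, Il23a, Ccl2, Il1a and Lif, from -1.69 to -0.52. Cxcl10, a chemokine for T cells that interferon induces, rose from 84.2 and 109.9 to 332 and 420.4 (1.79 ± 0.19, adjusted p = 0.00298). Ptgs2, the inducible cyclooxygenase that makes prostaglandins, rose from 3819.5 and 4187 to 7903 and 10416 (1.18 ± 0.16, adjusted p = 0.00559). Tslp rose as given above, and the others that rose were Lcn2, Ccl5 and a pair of interleukin-36 genes (Il36g and Il36b), from 1.65 to 0.63. The α9 arrays were on 1 side of the null arrays in all 16, as in every cluster that passed and in 59.0% of all clusters. With an array of the compared lines left out, 5 or 6 rises and 5 to 7 falls passed, and 5 and 4 on the deposited scale. The call of Csf2 ended without either null array (adjusted p from 0.101 to 0.127) and on the deposited scale (0.083).

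Of 37 measured genes of DNA replication and cell division 14 fell in the α9 line and none rose, with a median of -0.47. The share that fell was 37.8%, beside 6.18% of all clusters. Ccne2, a cyclin of S phase entry, fell from 979 and 992 on the null arrays to 495 and 330.2 on the α9 arrays (-1.25 ± 0.19, adjusted p = 0.00845). Hmmr, a protein of the mitotic spindle, fell from 679 and 680.3 to 299.7 and 300.3 (-1.14 ± 0.13, adjusted p = 0.00371). Cenpe, a kinetochore motor, fell from 358 and 338 to 178 and 154 (-1.001 ± 0.13, adjusted p = 0.00491), and Cdc45, a part of the replicative helicase, fell from 719.8 and 737 to 378 and 374 (-0.93 ± 0.19, adjusted p = 0.0214). The arrays of the lines did not overlap in any of the 4. Cdk1, the mitotic kinase, gave 3203 and 4019 against 2499.7 and 2381 (-0.55 ± 0.14, adjusted p = 0.0389), and Mki67, the proliferation antigen Ki-67, gave 552 and 591 against 335 and 363 (-0.69 ± 0.15, adjusted p = 0.0276). In bulk RNA, fewer cells in cycle and less RNA per cell cannot be told apart. On the deposited scale 1 member passed as lower in place of 14, and 2 to 6 passed with an array of the compared lines left out (the fewest without null array 2), so the count depends on the scaling and on single arrays. Of the named members, Hmmr and Cenpe kept their calls with each array left out, while those of Ccne2, Cdc45, Cdk1 and Mki67 ended at adjusted p from 0.0533 to 0.191. Of the 6 only Hmmr passed on the deposited scale.

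The promoter windows of 13 of the 14 members that fell were searched for TTTGAA, the core of the cell cycle homology region (TTCAAA on the other strand), and for the CCAAT box (ATTGG). The first stood in 7 of the 13, beside 17.9% of all windows, and the CCAAT box in 11, beside 37.4%. A gene was counted if any of its windows held the element, while the shares are of single windows. Members that did not pass were not searched, so these counts do not tie the elements to the fall rather than to the list. The windows of Cdk1, at chr10:69352863-69353162, and Hmmr, at chr11:40733388-40733687, both on the minus strand of GRCm38.p6, hold both elements and are shown with the matches in capitals.
Cdk1, which fell: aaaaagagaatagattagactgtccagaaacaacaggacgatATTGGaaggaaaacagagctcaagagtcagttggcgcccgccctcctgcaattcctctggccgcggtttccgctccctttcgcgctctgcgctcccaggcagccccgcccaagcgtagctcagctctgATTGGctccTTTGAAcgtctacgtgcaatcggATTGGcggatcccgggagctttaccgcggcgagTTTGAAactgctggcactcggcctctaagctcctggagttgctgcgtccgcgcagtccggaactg
Hmmr, which fell: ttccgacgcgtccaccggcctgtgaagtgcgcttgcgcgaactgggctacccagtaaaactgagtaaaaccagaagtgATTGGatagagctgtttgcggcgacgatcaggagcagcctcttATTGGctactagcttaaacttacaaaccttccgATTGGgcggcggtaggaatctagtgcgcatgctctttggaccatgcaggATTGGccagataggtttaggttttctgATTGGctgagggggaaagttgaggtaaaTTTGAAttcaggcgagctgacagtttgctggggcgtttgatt

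Of 23 targets of p53 and inhibitors of cyclin-dependent kinases 8 rose and none fell, with a median of 0.30. The share that rose was 34.8%, beside 7.14% of all clusters. Pmaip1, the pro-apoptotic protein Noxa, rose from 501 and 631 to 1572 and 1692 (1.51 ± 0.14, adjusted p = 0.00201). Gadd45b, a stress-induced protein, rose from 2443 and 2479.9 to 5109 and 8173 (1.39 ± 0.21, adjusted p = 0.00761). Trp53inp1 and Zmat3, both induced by p53, rose by 1.05 ± 0.13 and 1.01 ± 0.13. Cdkn1b, the kinase inhibitor p27, rose from 1140.2 and 1035 to 1824 and 2073 (0.83 ± 0.17, adjusted p = 0.0203). All were higher on both α9 arrays. These cells carry SV40 large T antigen, which is known to bind p53. With an array of the compared lines left out 3 to 6 members passed (the fewest without null array 1), and 7 on the deposited scale. The call of Gadd45b ended without null array 1 (adjusted p = 0.052) and that of Cdkn1b with any of the 4 arrays of the pair left out (0.0563 to 0.123).

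Of 27 genes that the ERK kinases switch on 9 fell and none rose (33.3%, beside 6.18% of all clusters that fell), with a median of -0.41. Dusp6 and Fosl1, given above, fell the most. Phlda2, an imprinted growth suppressor, fell from 536 and 765 on the null arrays to 229 and 153 on the α9 arrays (-1.69 ± 0.29, adjusted p = 0.0117). Ier2, an immediate early gene, fell from 453 and 609 to 180.5 and 148 (-1.59 ± 0.17, adjusted p = 0.00288). The feedback inhibitors Spred1 and Spry2 fell by 0.95 and 0.82 on the log2 scale, and Egr1 went from 117 and 120.2 to 73.2 and 78.8 (-0.55 ± 0.11, adjusted p = 0.0205). For all 9 the α9 arrays lay below the null arrays. Lack of overlap held for every cluster that passed and for 59.0% of all clusters. Of 13 measured EGF-family receptors, ligands and regulators, which act upstream of ERK, 4 rose and 1 fell, with a median of 0.24. Of this list 38.5% passed, beside 13.3% of all clusters. Egfr rose from 593 and 621 to 1185 and 1491 (1.11 ± 0.14, adjusted p = 0.00491). Erbb3 and Lrig3 rose by 0.73 ± 0.15 and 0.70 ± 0.12. Ereg, epiregulin, a ligand that ERK also induces, fell from 804 and 820.1 to 439.5 and 410.1 (-0.91 ± 0.15, adjusted p = 0.00925). With an array of the compared lines left out 3 to 8 of the ERK genes passed as lower, and 4 on the deposited scale. The calls of Dusp6, Fosl1, Ier2 and Egfr did not end with any array left out. Those of Phlda2, Egr1, Ereg, Erbb3 and Lrig3 ended, at adjusted p from 0.0554 to 0.112, and of these only Phlda2 passed on the deposited scale.

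Of 19 targets of YAP and TEAD, the factors that respond to cell spreading and tension, 11 rose and none fell, with a median of 0.63. The share that rose was 57.9%, beside 7.14% of all clusters. Apart from Rbms3, the largest was F3, tissue factor, from 723 and 795 on the null arrays to 2268 and 3980.3 on the α9 arrays (1.96 ± 0.24, adjusted p = 0.00448). Amotl2, a feedback inhibitor of YAP, rose from 277 and 248 to 717 and 752 (1.43 ± 0.13, adjusted p = 0.00194). Nt5e, the ecto-enzyme that makes adenosine, rose from 1118 and 1333 to 3181 and 3389 (1.42 ± 0.16, adjusted p = 0.0035). Ccn2, connective tissue growth factor, rose from 1124 and 1095 to 3005 and 2092 (1.17 ± 0.22, adjusted p = 0.0153). No array of the α9 line fell within the range of the null line in these genes. With an array of the compared lines left out 4 to 6 members passed (the fewest without null array 1), and 8 on the deposited scale. F3, Amotl2 and Nt5e kept their calls with each array left out, and the call of Ccn2 ended without either null array or without α9 array 1 (adjusted p from 0.0659 to 0.0803).

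**Figure D3:**
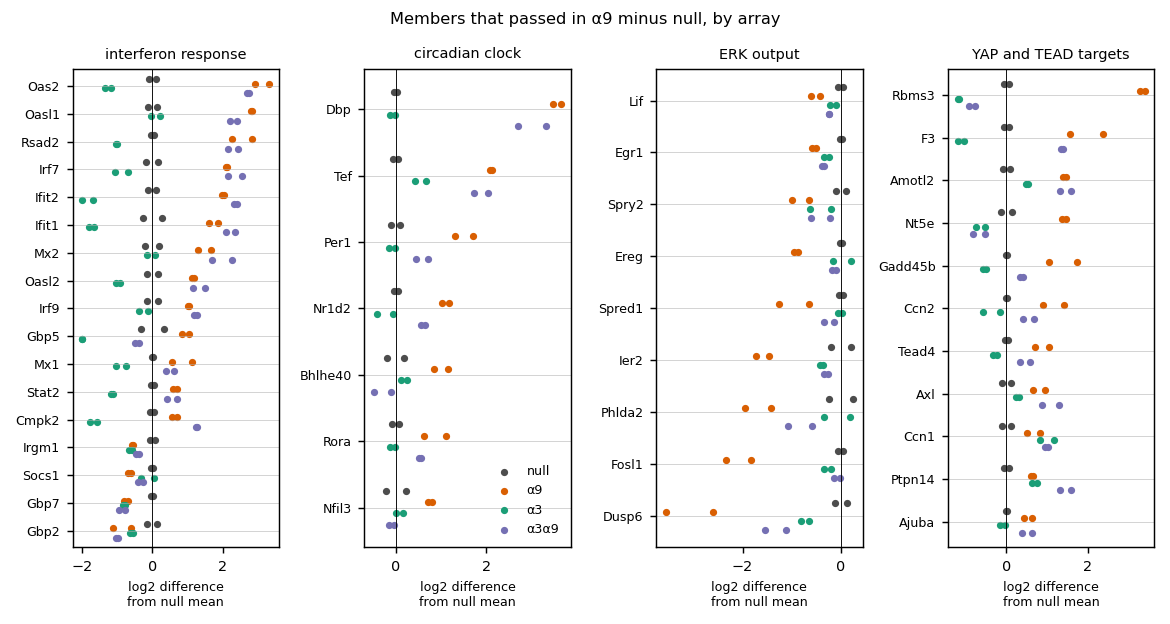
Members that passed in α9 minus null from 4 lists (interferon response, circadian clock, ERK output, YAP and TEAD targets), each array as 1 point, as the log2 difference from the mean of the null arrays (horizontal axis, log2 of scaled intensity + 16). The α9 points (orange) lie to the right of the null points (grey) for the 13 interferon genes, 7 clock genes and 11 YAP and TEAD targets that rose, and to the left for the 4 interferon and 9 ERK genes that fell.

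In the adhesion machinery, 3 of 27 genes rose and 2 fell, with a median of 0.04. That share is 18.5%, beside 13.3% of all clusters and 15.7% of those with 1 named gene. Fermt1, the kindlin that activates integrins in keratinocytes, fell from 713 and 745 on the null arrays to 369 and 301 on the α9 arrays (-1.09 ± 0.14, adjusted p = 0.00496). The tetraspanin Cd81 rose from 354 and 435 to 789 and 755 (0.95 ± 0.18, adjusted p = 0.0163), and Vcl (vinculin) and Git1 rose by 0.61 ± 0.15 and 0.59 ± 0.12. Of 23 basement membrane and hemidesmosome genes 2 rose and 1 fell, 13% and close to the share of all clusters, with a median of 0.07. They were Dst, the dystonin of the hemidesmosome, from 477 and 443 to 807 and 889 (0.86 ± 0.12, adjusted p = 0.00559), the laminin chain Lamc1 (0.60 ± 0.16, adjusted p = 0.0455) and the proteoglycan Hspg2, perlecan (-0.65 ± 0.14, adjusted p = 0.0243). Of 25 genes of interstitial and provisional matrix 5 rose and 1 fell (24.0%), with a median of 0.05. Col12a1, a fibril-associated collagen, rose from 38.1 and 31.1 to 102 and 112 (1.28 ± 0.13, adjusted p = 0.00253), Tgfbi rose by 0.74 ± 0.19, and Thbs2, an anti-angiogenic thrombospondin, fell from 637 and 764 to 346 and 191 (-1.38 ± 0.26, adjusted p = 0.0151). Arrays of the lines did not overlap for any of these. Proteases and their inhibitors had 5 rises and 2 falls of 34 (20.6%), with a median of 0.18. Ctss, cathepsin S, rose from 47.1 and 45.5 to 177 and 151 (1.53 ± 0.16, adjusted p = 0.00284), and the membrane-anchored protease Prss8 from 155 and 163 to 384 and 464 (1.33 ± 0.14, adjusted p = 0.00298). Mmp13, a collagenase, rose from 23.3 and 30.0 to 94.2 and 66.3 (1.16 ± 0.22, adjusted p = 0.0168), and Plau, the urokinase plasminogen activator, fell from 4161 and 4272 to 1956 and 1822 (-1.15 ± 0.13, adjusted p = 0.00353). Spint1, which inhibits Prss8, rose by 1.11 ± 0.15. The calls of Fermt1, Dst, Col12a1, Ctss, Prss8, Plau and Spint1 did not end with any array left out, and those of Fermt1 (adjusted p = 0.0683), Vcl, Git1, Lamc1, Hspg2 and Thbs2 ended on the deposited scale. Those of Cd81, Vcl, Git1, Lamc1, Hspg2, Tgfbi, Thbs2 and Mmp13 ended with 1 array or another left out, at adjusted p from 0.0501 to 0.203.

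Among secreted signals, 6 of 31 Wnt genes rose and 1 fell, with a median of 0.09. That share is 22.6%, beside 13.3% of all clusters and 15.7% of those with 1 named gene. Wnt7b rose from 186 and 186 on the null arrays to 489 and 663 on the α9 arrays (1.54 ± 0.17, adjusted p = 0.00329). Wnt7a and Wnt10a, ligands made in epidermis, rose by 1.31 ± 0.15 and 1.27 ± 0.17, and the co-receptor Lrp5 rose from 444 and 417 to 940.2 and 1037 (1.17 ± 0.16, adjusted p = 0.00556). All 4 kept their calls with each array left out and on the deposited scale. Of 31 genes of the TGF-β pathway 4 rose and 4 fell (25.8%), with a median of 0.02. Tgfbr3, the co-receptor betaglycan, rose from 52.3 and 37.6 to 236 and 239 (2.07 ± 0.15, adjusted p = 0.00107). Inhba, the activin βA chain, rose by 0.92 ± 0.16. Id1, a target of bone morphogenetic proteins, fell from 531 and 626 to 224 and 167 (-1.50 ± 0.17, adjusted p = 0.0035), beside the fall of the antagonist Sostdc1. Angiogenic factors and inhibitors had 5 rises and 1 fall of 27 (22.2%), with a median of 0.12: F3, Vegfc, Vegfd, Ccn1 and Edn1 rose and Thbs2 fell. Edn1, an endothelin, went from 347 and 362 to 1022 and 1017 (1.48 ± 0.11, adjusted p = 0.00116). The α9 arrays were outside the range of the null arrays for every gene named here. The call of Inhba ended with any of the 4 arrays of the pair left out (adjusted p from 0.0509 to 0.0824) and on the deposited scale (0.0505).

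Genes of keratinocyte identity, differentiation and junctions passed at shares on either side of the 13.3% of all clusters and of the 15.7% of clusters with 1 named gene. None of 10 keratinocyte markers passed, and the 4 measured keratins of simple epithelia gave no call either. Krt5 and Krt14, the basal keratins, read 14532 and 15224 and 12882 and 13108 on the null arrays and 12181 and 15814 and 10189.6 and 13659.5 on the α9 arrays with overlapping ranges, and they were present in both lines as the label of keratinocyte requires. Of 22 genes of basal identity 4 rose (18.2%), Egfr and Dst above, Notch1 (0.53 ± 0.13) and Jag1 (0.53 ± 0.12), with a median of 0.11. Differentiation genes had 6 rises and 2 falls of 33 (24.2%), with a median of 0.12. Besides Cdsn, Krt78 rose from 54.8 and 56.6 to 201 and 246 (1.74 ± 0.16, adjusted p = 0.00201), and Klf4, a factor of barrier formation, from 772 and 797 to 1439 and 1719.6 (0.99 ± 0.14, adjusted p = 0.00679). Ivl, involucrin of the cornified envelope, went from 162 and 303 to 99.7 and 73.4 (-1.23 ± 0.28, adjusted p = 0.0298). Members of this list thus passed in both directions. Epithelial junctions had 3 rises of 29 and no falls (10.3%), with a median of 0.29: the plakophilin Pkp1 (0.99 ± 0.20, adjusted p = 0.0212), Nectin4 (0.95 ± 0.11, adjusted p = 0.00353) and the claudin Cldn3 (0.64 ± 0.15, adjusted p = 0.0315). Among 18 regulators and markers of the epithelial-mesenchymal transition 4 rose and 1 fell (27.8%), with a median of 0.26. Twist1 went from 104 and 132 to 275 and 192 (0.89 ± 0.20, adjusted p = 0.0293), the receptor kinase Axl and the factor Zeb2 rose by 0.81 ± 0.18 and 0.67 ± 0.13, and the epithelial splicing factor Esrp2 went from 639 and 641 to 917 and 981 (0.56 ± 0.11, adjusted p = 0.0205). S100a4 went from 105 and 142 to 65.4 and 33.1 (-1.13 ± 0.24, adjusted p = 0.0243). Krt78 and Nectin4 kept their calls with each array left out, and the calls of Notch1, Jag1, Klf4, Ivl, Pkp1, Cldn3, Twist1, Axl, Zeb2, Esrp2 and S100a4 ended with 1 array or another left out, at adjusted p from 0.0502 to 0.169. On the deposited scale those of Notch1, Jag1, Ivl, Cldn3, Twist1, Zeb2, Esrp2 and S100a4 ended too.

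Of 14 clock genes 7 rose and none fell (50%, beside 7.14% of all clusters that rose), with a median of 0.71. After Dbp the largest was Tef, of the same factor family, from 192 and 210.2 on the null arrays to 905 and 923 on the α9 arrays (2.10 ± 0.15, adjusted p = 0.000927). Per1, a repressor at the core of the clock, rose from 653 and 561 to 1527 and 1996 (1.504 ± 0.17, adjusted p = 0.00373), and Nr1d2, the nuclear receptor Rev-erbβ, from 758 and 809 to 1596 and 1799 (1.10 ± 0.15, adjusted p = 0.00577). Bhlhe40 rose by 1.01 ± 0.19. All 5 were higher on both α9 arrays. The hour of harvest is not given in the sources used here, and its part in these values was not tested. With an array of the compared lines left out 3 to 6 clock genes passed (the fewest without α9 array 2), and 6 on the deposited scale. The call of Nr1d2 ended without α9 array 2 (adjusted p = 0.05), and that of Bhlhe40 ended without that array or null array 1 (0.101 to 0.109).

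Metabolic and stress genes passed in both directions, beside 13.3% of all clusters and 15.7% of those with 1 named gene. The shares were 17.2% for glycolysis and hypoxia, 22.2% for cholesterol and fatty acid synthesis and 19.4% for the stress responses. They were 50% for heat shock, 21.1% for NRF2 and 19% for immediate early genes. Of 29 genes of glycolysis and hypoxia 2 rose and 3 fell, with a median of 0.01. Beside Pfkfb3, Ndrg1 rose from 1309 and 1425 on the null arrays to 2498 and 3512 on the α9 arrays (1.11 ± 0.20, adjusted p = 0.0137), while Ddit4, an inhibitor of mTOR, fell by 1.26 and Egln3, an oxygen-sensing hydroxylase, fell by 1.04 on the log2 scale. In cholesterol and fatty acid synthesis 1 of 27 rose and 5 fell, with a median of -0.19. Hmgcs1, the enzyme before HMG-CoA reductase, fell from 2753 and 2899 to 1262 and 937 (-1.36 ± 0.28, adjusted p = 0.0203), Elovl6 and Scd2 gave -1.02 ± 0.21 and -0.76 ± 0.18, and the desaturase Fads1 rose by 0.84 ± 0.17. Of 31 genes of the unfolded protein and other stress responses 5 rose and 1 fell, with a median of -0.003. Ppp1r15a, which restores translation after stress, rose from 474 and 585 to 1318 and 1986 (1.59 ± 0.21, adjusted p = 0.00496), Ddr2, a collagen receptor kinase, from 88.8 and 96.9 to 267 and 261 (1.36 ± 0.13, adjusted p = 0.0019), and Ddit3 and Chac1 by 0.96 ± 0.16 and 0.99 ± 0.18. None of these genes overlapped between lines. Of 8 heat shock genes 4 fell and none rose, with a median of -0.36, from Hsp90aa1 at 143 and 115 against 33.4 and 24.1 (-1.70 ± 0.42, adjusted p = 0.0377) and Dnaja1 (-1.42 ± 0.23, adjusted p = 0.00974) to Chordc1 (-1.06 ± 0.13, adjusted p = 0.00462) and Hsph1 (-0.60 ± 0.16, adjusted p = 0.0483). Of the antioxidant genes under NRF2, 2 of 19 rose and 2 fell, with a median of -0.07: Abcc1 and Gclc rose by 0.65 ± 0.13 and 0.53 ± 0.12, Slc7a11, the cystine transporter, fell by 0.74 on the log2 scale, and Gpx2 was the other. Of 21 immediate early genes 1 rose and 3 fell, with a median of -0.02, and Csrnp1 rose from 109.7 and 106 to 277 and 371 (1.44 ± 0.15, adjusted p = 0.00284) while Ier5 gave -0.74 ± 0.14. On the deposited scale none of the heat shock genes passed (Chordc1 gave an adjusted p of 0.121), nor did Ddit4, Egln3, Elovl6, Scd2, Abcc1, Gclc, Slc7a11 or Ier5. Egln3, Ppp1r15a, Ddr2, Chordc1 and Csrnp1 kept their calls with each array left out. The calls of Ndrg1, Ddit4, Hmgcs1, Elovl6, Scd2, Fads1, Ddit3, Chac1, Hsp90aa1, Dnaja1, Hsph1, Abcc1, Gclc, Slc7a11 and Ier5 ended with 1 array or another left out, at adjusted p from 0.0541 to 0.189.

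**Figure D4:**
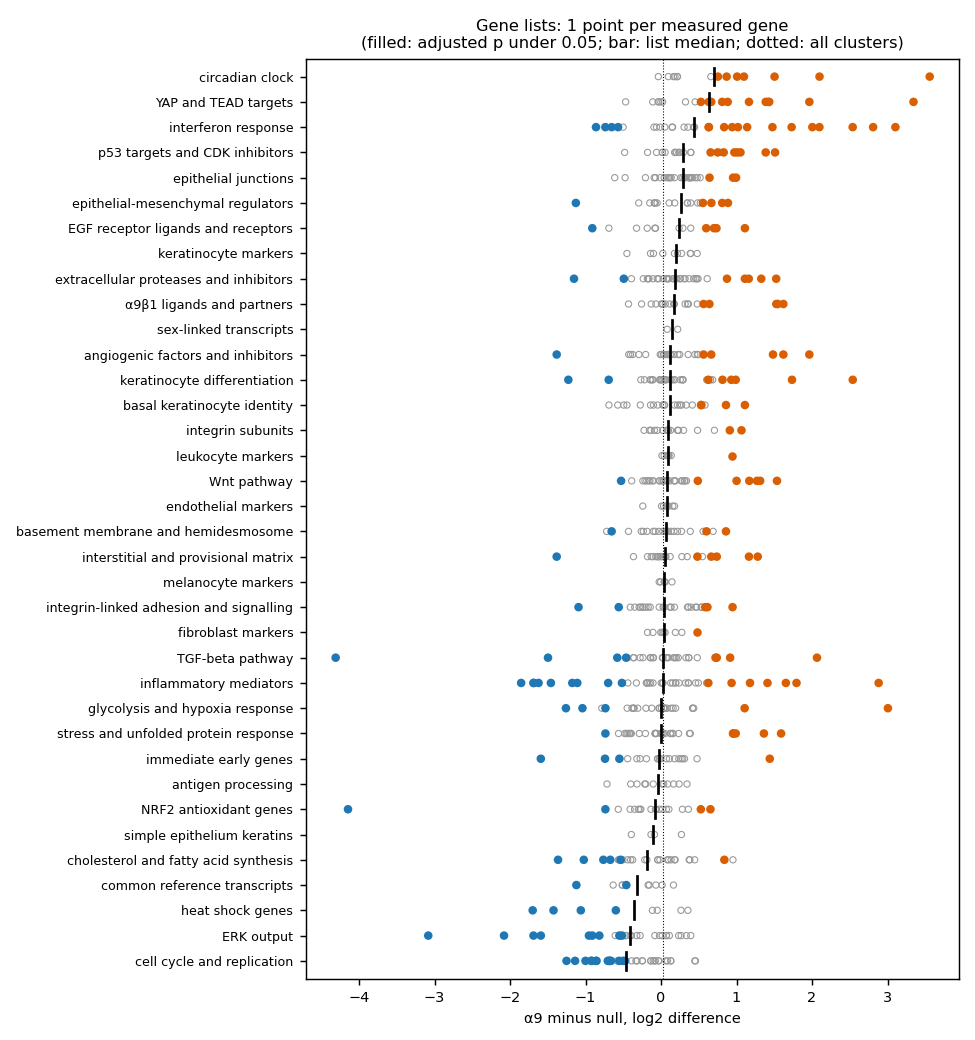
Difference between the α9 and null lines (horizontal axis, log2) for each measured gene of 36 lists (vertical axis, ordered by median), 1 point per gene, filled where the adjusted p was under 0.05 (orange higher, blue lower), with a bar at each list's median and a dotted line at the median of all clusters, 0.03. The clock list has the highest median, 0.71, and the cell cycle list the lowest, -0.47.

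Markers of other cell types passed in 2 cases, Dcn and Cd68. These were 11.1% of the fibroblast and 12.5% of the leukocyte markers, beside 13.3% of all clusters. Averaged over the null and α9 arrays, 6 of 9 fibroblast, 5 of 6 melanocyte, 6 of 8 leukocyte and all 8 endothelial markers read under 100, and the highest of each list read 226, 140.0, 696 and 58.3. Of 9 fibroblast markers 1 rose, and their summed level was 816 to 838 on the null arrays and 782 to 847 on the α9 arrays. The gene was Dcn, at 15.0 and 15.975 and 28.9 and 27.0 (0.48 ± 0.11, adjusted p = 0.0297), a call that ended with any null, α9 or α3 array left out (adjusted p from 0.057 to 0.151) and on the deposited scale. Of 8 leukocyte markers 1 rose, Cd68, from 393 and 558 to 897 and 935 (0.94 ± 0.18, adjusted p = 0.0162), a lysosomal protein that is not restricted to leukocytes, and its call ended without null array 1 or either α9 array (0.0629 to 0.0956). Ptprc, the common leukocyte antigen, read 27.0 and 26.9 and 31.6 and 30.7. The summed level of the leukocyte list, which includes Cd68, was 750.3 to 909 on the null arrays and 1272 to 1321 on the α9 arrays. The other leukocyte markers differed by 0.01 (Itgam) to 0.14 (Ptprc) on the log2 scale. None of 6 melanocyte or 8 endothelial markers passed, with sums of 328 to 351 and 341 to 342 on the null arrays and 345 to 365 and 348 to 358 on the α9 arrays. No marker of these lists read 0. Of 10 transcripts often used as references 2 fell and none rose (20%, beside 6.18% of all clusters that fell), with a median of -0.32: Tfrc, the transferrin receptor, from 5207 and 5282 to 2332 and 2474 (-1.12 ± 0.13, adjusted p = 0.00353), and Hprt (-0.46 ± 0.12, adjusted p = 0.0494), whose call ended under most settings. Their part in the other results was not tested.

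The α3α9 and α3 lines cross the same array sets and share no array with α9 and null, so their difference shows what is met again where α3 is present. There 4199 clusters passed (18.0%), 2868 higher and 1331 lower, with a median over all clusters of 0.10. Of the 3107 clusters called in α9 minus null, 2746 (88.4%) had the same sign in α3α9 minus α3. This held for 92.4% of the rises and 83.7% of the falls, while 61.9% of all clusters were positive there. In the same direction 1666 passed both tests, 53.6% of the first list and 39.7% of the second, and 39 passed in opposite directions. Dbp went from 36.6 and 40.6 on the α3 arrays to 549 and 355 on the α3α9 arrays (3.07 ± 0.20, adjusted p = 0.00048), Mrto4 from 1583 and 1288 to 199 and 201 (-2.74 ± 0.17, adjusted p = 0.000404) and Tnfaip8 from 1813 and 1617 to 381 and 331 (-2.22 ± 0.16, adjusted p = 0.000744). All 3 differed in the same direction in both comparisons, with no overlap between arrays in either. By list, 20 of 28 interferon genes rose and none fell there, and 22 of 37 cell cycle genes fell and 1 rose. Of 14 clock genes 8 rose, of 19 YAP and TEAD targets 10 rose, and of 38 inflammatory mediators 13 fell and 5 rose. The members were not all the same: Bhlhe40, Rbms3 and Nt5e did not pass there. Other lists differed. Of the heat shock genes and those of cholesterol and fatty acid synthesis none fell there, beside 4 and 5 in α9 minus null. Of 20 α9β1 ligands and partners 2 rose and 1 fell there, beside 5 rises in α9 minus null. Since either comparison carries both α9 and the array set, the overlap does not tell them apart. The 4199 calls became 765 on the deposited scale, 1807 without α3α9 array 1, 811 without α3 array 1 and 1447 without α3 array 2.

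In the difference of the 2 differences, a shift between the array sets that is the same with and without α3 cancels on the log2 scale. A shift between the sets that differs with α3 does not cancel and cannot be told apart from α9. The difference of the 2 differences passed for 139 clusters (0.596%), 66 higher and 73 lower, and 3501 had an unadjusted p under 0.05. Of the 3107 clusters called in α9 minus null, 89 (2.86%) passed it. In 74 of the 89 its sign was opposite to that of α9 minus null. The null and α9 arrays enter both tests, so clusters chosen for a large α9 minus null lean toward an opposite sign here. Tslp, at 23.1 and 41.5 in the null line and 372 and 299.7 in the α9 line, fell from 66.9 and 69.7 on the α3 arrays to 11.5 and 7.18 on the α3α9 arrays, which gives -4.62 ± 0.29, adjusted p = 0.00261. Rbms3, up more than 10-fold with α9 alone, read 34.3 and 34.1 with α3 and 51.1 and 44.6 with both (-3.00 ± 0.17, adjusted p = 0.00261). Itga2 rose with α9 alone and fell from 353 and 327 to 76.3 and 63.3 where α3 was present (-2.97 ± 0.28, adjusted p = 0.013). Levels of all 3 were thus highest in a line with a single subunit. Sostdc1 was already at 112 and 148 in the α3 line and at 61.4 and 62.4 in the α3α9 line, so that its large fall with α9 alone had no counterpart of that size there (3.41 ± 0.21, adjusted p = 0.00261). Fosl1, lower with α9 alone, gave 489 and 439 with α3 and 553 and 510.0 with both (2.27 ± 0.25, adjusted p = 0.0185), and Ier2 gave 388 and 406 and 434 and 412 (1.68 ± 0.24, adjusted p = 0.0384). Of the 9 ERK genes that fell with α9 alone, these last were the ones to pass here. In α3α9 minus α3 none of the 27 ERK genes fell and 3 rose. The interferon genes Ifit1, Ifit2 and Cmpk2 rose more where α3 was present: Ifit2 went from 244 and 287 to 1139 and 1083 with α9 alone and from 54.6 and 72.2 to 1379.9 and 1451 beside α3 (2.18 ± 0.21, adjusted p = 0.0135). Vegfd rose more beside α3 as well, from 478 and 419.9 to 1637 and 1559 (1.23 ± 0.17, adjusted p = 0.0346). The count of 139 became 20 on the deposited scale, 32 with a pseudocount of 1 and 482 with one of 64. It was 18 and 8 without null arrays 1 and 2, 41 and 27 without α9 arrays 1 and 2, 20 without either α3 array, and 38 without α3α9 array 1.

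**Figure D5:**
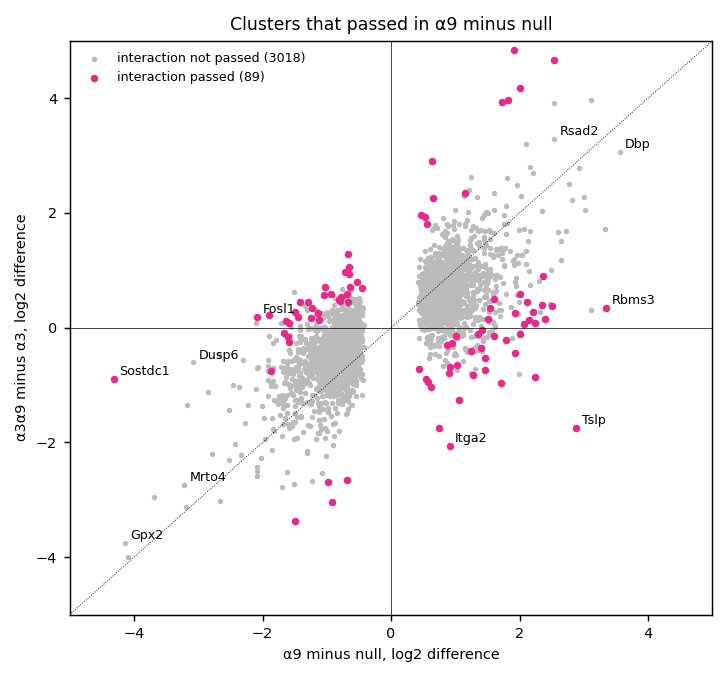
The 3107 clusters that passed in α9 minus null, with that difference on the horizontal axis and α3α9 minus α3 on the vertical axis (both log2), 1 point per cluster, pink where the difference of the 2 passed (89) and grey otherwise. On the axes 88.4% of the points have the same sign, and Tslp, Rbms3, Itga2, Sostdc1 and Fosl1 lie far from the dotted line of equal differences.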

How the data were processed

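RNA from 8 samples, 2 of each of 4 keratinocyte lines, was measured on the Affymetrix Mouse Exon 1.0 ST array. The authors deposited linear intensities, 1 for each cluster and array, made with Affymetrix Expression Console and PLIER per the submitters' processing notes, while the series' design text names the Exon Array Computational Tool. Tool versions, genome build and filters were not given in the sources used here. Samples were grouped by title.

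Each array was scaled to the mean of the array medians, and log2(intensity + 16) was fitted with limma 3.58.1 (lmFit, eBayes; R 4.3.3) over all 8 arrays, leaving 4 residual degrees of freedom after a mean for each line. Contrasts were α9 minus null, α3α9 minus α3 and their difference, each adjusted by Benjamini-Hochberg over 23332 clusters. The fit was tested on simulated data. There is no read depth on arrays, and precision is limited by their number. Of the clusters, 14996 had 1 gene in the platform annotation, 1019 several and 7317 were unlisted and stay unnamed; 14805 of 14860 genes matched the RefSeq table of GRCm38.p6, and where a gene had several clusters (135 genes) the brightest stood for it. The 36 lists hold 797 symbols, 668 measured.

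Named genes were Itga3, Itga9 and Itgb1 as a check, the 12 largest rises and falls that passed without overlap (predicted genes passed over), up to 4 passing members of each list and all α9β1 ligands and partners. Any further gene in the text was picked with its values in view. The comparison, the lists and their members were chosen with earlier results of these data known.

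Alternatives were other scalings, pseudocounts of 1 and 64, leaving out dim or unnamed clusters, other eBayes settings, fewer arrays and the replicate number as a block.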

Additional observations from a re-analysis of the deposited data

Results flagged for a closer look

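For 12 of the 150 genes named, the difference between the lines with and without α9 was itself different in the presence of α3, by the test of the difference of the 2 differences in the limma fit (log2, ± SE, adjusted over all clusters). It was lower beside α3 for Tslp at -4.62 ± 0.29 (adjusted p = 0.00261), Rbms3 at -3.00 ± 0.17 (0.00261), Itga2 at -2.97 ± 0.28 (0.013), the stress keratin Krt16 at -1.65 ± 0.23 (0.0384) and Nt5e at -1.45 ± 0.22 (0.0487). It was higher beside α3 for Vegfd at 1.23 ± 0.17 (0.0346), Ier2 at 1.68 ± 0.24 (0.0384), Ifit2 at 2.18 ± 0.21 (0.0135), Ifit1 at 2.20 ± 0.29 (0.0345), Fosl1 at 2.27 ± 0.25 (0.0185), Cmpk2 at 2.28 ± 0.18 (0.00604) and Sostdc1 at 3.41 ± 0.21 (0.00261). Each value rests on 2 arrays of each of the 4 lines. Of all clusters 0.596% passed this test. Many of the named genes were chosen for their α9 minus null values, from arrays that enter this test too, and others with their values in view. The share among named genes can therefore not be set against that of all clusters. Krt16, not given above, rose in α9 minus null (0.63 ± 0.16, adjusted p = 0.0477) and fell in α3α9 minus α3 (-1.03 ± 0.16, adjusted p = 0.00824). Its call in α9 minus null ended on the deposited scale (0.152), with a pseudocount of 1 and with the 4 arrays of the pair alone, among other settings. Causes of the 12 differences were not tested.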

How the results depend on the processing

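Of the 3107 calls of α9 minus null, those tested under each of the 20 alternatives kept their sign: all of them, but 2923 with the lowest 25% of clusters left out and 2347 with 1-gene clusters alone. Without scaling, 1009 clusters passed (817 higher, 192 lower) in α9 minus null, 765 in α3α9 minus α3 and 20 in the difference of the 2. With 1 of the 8 arrays left out, α9 minus null gave 780 to 3644 clusters, 421 to 1979 higher and 359 to 1665 lower, α3α9 minus α3 gave 811 to 4715 and the difference of the 2 gave 8 to 157. A pseudocount of 1 gave 32 clusters in the difference of the 2 and one of 64 gave 482. The labels do not pair the arrays, and same-numbered null and α9 arrays did not deviate together (correlation of deviations 0.0498). With the replicate number as a block 2327 clusters passed in α9 minus null (1221 higher, 1106 lower), 3225 in α3α9 minus α3 and 55 in the difference of the 2. The other alternatives gave 2260 (pseudocount 1) to 4036 (pseudocount 64) for α9 minus null, within 1.5 times the count reported, including 2549 with the 4 arrays of the pair alone. The alternatives for α3α9 minus α3 were chosen after seeing the data. Of 132 named genes that passed, 66 kept their calls with each array left out, 117 with the 4 arrays alone and 61 under all alternatives in which they were tested, and none of the 132 turned its sign where it was tested. The cause of these changes was not tested, beyond the smaller number of arrays where some were left out. Of the dimmest 25% of clusters, nearest the background of the arrays, 184 passed.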
